A study of Rattus norvegicus with 8 samples.

Results

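Endothelial cells of the rat spinal cord were examined in sham-operated animals and after contusions of 3 strengths. They were 418 of the 68658 cells in the deposited count tables. A cell was counted as endothelial when at most 10% of its unique molecular identifiers (UMIs, tags that mark single RNA molecules) lay on mitochondrial genes, it held at least 1000 UMIs, and Cldn5, Pecam1 and Flt1 together had at least 4 UMIs with at least 2 of the 3 genes detected. Cells with more than 2 UMIs of Tyrobp, a myeloid adaptor gene, or more than 5 UMIs of the fibrillar collagen genes Col1a1 and Col3a1 together were left out. Pecam1 was not matched to a symbol in the gene list used here, so that in effect both Cldn5 and Flt1 had to be detected. Of the 57296 cells within the mitochondrial and UMI limits, 541 passed the marker step, 97 of these had too much Tyrobp and 26 too much collagen. The limit itself touched few cells: 2 members had a marker sum of exactly 4, 5 cells outside had a sum of 3 and 6 had a sum of 2, while 27 cells reached the sum with a single marker.

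The animals were female Wistar rats aged 8 weeks, and spinal cord cells were sequenced 7 days after surgery. A 10 g weight was let fall on the exposed cord at T9, and its height was 12.5 mm for mild, 25 mm for moderate and 50 mm for severe contusions. The sham group had the vertebral lamina removed without a weight drop, so that laminectomy was shared by all groups. Each group had 2 libraries of 10 mm of cord, called replicates 1 and 2. The study describes as many cords as libraries, while the labels name no animals, and a p-value measures the spread between these libraries.

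The libraries held 79348337 and 31482153 UMIs for sham, 110362657 and 114899143 for mild, 119743246 and 95232897 for moderate and 49057303 and 131045446 for severe contusion. Endothelial cells were unevenly spread over them, with 188 and 46 cells after sham surgery, 2 and 18 after mild, 4 and 3 after moderate and 57 and 100 after severe contusion. Levels are therefore given as counts per 1000000 UMIs (CPM) of the summed endothelial cells of a library, and the sums rested on 2242345 and 294644 UMIs in the sham group and on 924357 and 1576066 UMIs in the severe group. The endothelial sums of the mild and moderate libraries held between 20408 and 189714 UMIs. At most 40 cell barcodes were shared by any pair of the 8 libraries.

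Endothelial cells line all blood vessels. In the spinal cord they form the blood-spinal cord barrier, in which tight junctions seal the gaps between cells and dedicated transporters carry glucose, amino acids and organic anions between blood and tissue. Wnt signals from the surrounding tissue maintain this state, and vessels that sprout or become inflamed are known to show tip cell, matrix and leukocyte adhesion genes that resting capillaries hold at low levels.

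The selected cells carried transcripts of endothelium other than the genes that chose them. Cldn5, the main claudin of the barrier, stood at 4957 and 4735 CPM in the sham cells and at 2062 and 4026 CPM in the severe cells, against 42.6 CPM or less in the remaining cells of these 4 libraries. Flt1, a receptor for vascular endothelial growth factor, was at 1766 and 1174 CPM in the sham and at 574.5 and 453 CPM in the severe cells. Both genes are part of the rule and are given only as a description. Of the 17 endothelial markers found by symbol, 15 are not part of the rule, and 14 of these had a UMI in the endothelial cells of all 4 libraries. Their summed level without Cldn5 and Flt1 was 6647 and 6605 CPM in the sham cells and 6100 and 6079 CPM in the severe cells, whereas it lay between 167 and 213 CPM in the remaining cells of the same libraries.

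Apart from the genes of the rule, the 10 genes with the highest median ratio of endothelial to remaining cells were Slco1a4, Slco1c1, AC120594.1, Cyyr1, Acer2, Adgrf5, Sox17, Akr1c15, Adgrl4 and Fam110d, among genes with at least 100 CPM in each of the 4 libraries. The ratio was 390 for Slco1a4 and 377 for Slco1c1, both transporters of organic anions at the barrier, and 238 for Sox17, a transcription factor of endothelial identity. It was still 205 for Fam110d, the last of the 10. The cells were chosen by their counts, so that these ratios describe them and test nothing.

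RNA of other cell types was also present in the endothelial sums. Macrophage markers summed to 5080 and 9052 CPM in the sham and 7541 and 12000 CPM in the severe cells, nearly all of it Apoe, while the microglial receptor Cx3cr1 was at 0 in all 4. Pericyte and smooth muscle markers summed to 833 and 604 CPM in the sham and 109 and 219 CPM in the severe cells, with Rgs5 as their most abundant gene and 7 of 12 markers found in all 4 libraries. Markers of neutrophils were mostly in sham replicate 1, at 1998 CPM with S100a9 on top and with Ngp at 0, against 0, 31.4 and 26.6 CPM in sham replicate 2 and the severe libraries. Haemoglobin and other erythroid genes summed to 5145 and 2576 CPM in the sham and 1425 and 2169 CPM in the severe cells. Among these 4 libraries fibroblast markers were highest in severe replicate 2, at 3852 CPM, and oligodendrocyte markers at 1635 CPM in sham replicate 1 and 1476 CPM in severe replicate 2. At least 1 UMI of Tyrobp was found in 90 and 15 sham cells and in 8 and 38 severe cells. Among the 7.7% of cells with the highest doublet scores of their library were 20 and 3 sham cells and 9 and 11 severe cells.

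Endothelial cells were frequent in the sham and severe libraries and nearly missing from the mild and moderate ones. They made up 2.04% (95% exact binomial interval 1.76 to 2.35) and 1.74% (1.28 to 2.31) of the cells within the limits in the sham libraries. In the mild libraries the share was 0.0267% (0.00323 to 0.0963) and 0.213% (0.126 to 0.336), and in the moderate libraries 0.0368% (0.0100 to 0.0943) and 0.0460% (0.00950 to 0.135). The severe libraries had shares of 1.43% (1.08 to 1.85) and 1.23% (1.01 to 1.499). Both severe libraries lay below both sham libraries and above all 4 mild and moderate libraries, and the intervals cover counting error only.

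The mean share was 1.89% ± 0.210 (SD, n = 2) for sham, 0.120% ± 0.132 for mild, 0.0414% ± 0.00652 for moderate and 1.33% ± 0.137 for severe libraries. All 6 injured libraries lay below both sham libraries, with a mean difference of -1.39 percentage points (exact two-sided permutation test, p = 0.0714, the smallest p that 6 against 2 libraries can give). Without both severe libraries the difference was -1.81 points (p = 0.133 in the exact permutation test, again the smallest possible), and with Tyrobp and collagen at 0 in every counted cell it was -0.756 points (exact permutation p = 0.143), since severe replicate 1 then lay between the sham libraries. Immune cells, with more than 2 UMIs of Tyrobp or any of Ptprc, made up between 69.7% and 91.3% of a library, so that the share was also taken among the other cells. There it was 7.66% and 19.1% for sham, 0.157% and 0.756% for mild, 0.248% and 0.140% for moderate and 5.17% and 4.03% for severe libraries. The difference between injured and sham was -11.6 points (exact permutation p = 0.0714). It was -5.91 points without sham replicate 2 and -17.4 points without sham replicate 1. Erythroid genes in the endothelial cells moved with the share, at most 10.54 CPM in the mild and moderate libraries and at least 1425 CPM in the others. Their part in the result was not tested. To be counted, a cell had to show Cldn5 and Flt1, so that the share also depends on the levels of these genes. The median Flt1 UMIs per counted cell were 16 and 4 for sham and 5 and 6.5 for mild libraries. They were 4 and 12 for moderate and 7 and 6 for severe libraries. The part of marker levels in the share was not tested.

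**Figure D1:**
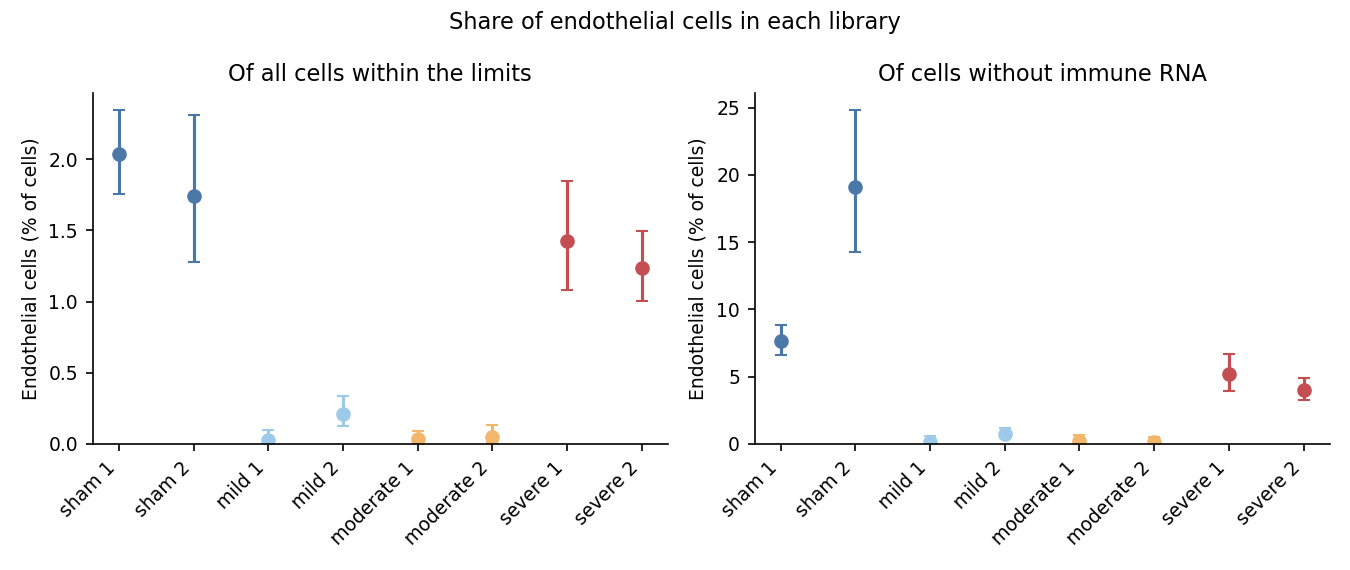
Share of endothelial cells in each of the 8 libraries, in percent of all cells within the limits (left) and of cells without immune RNA (right). Points are libraries and bars are exact binomial 95% intervals; the 4 mild and moderate libraries lie at or below 0.213% of all cells, and the sham and severe libraries at or above 1.23%.

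The severe libraries also stood apart in cells that were not endothelial, which bears on every comparison that follows. In cells with more than 10 UMIs of Tyrobp, 4907 genes reached 30 CPM in at least 1 library, and 17 of these lay at least 4 times above (7) or below (10) all 6 other libraries in both severe libraries. By the same count 1 gene lay above and 15 below in the sham libraries, none in the mild and 1 above in the moderate libraries. The 17 genes included Cxcl1, Rps19, Sumo4, Nhp2 and unnamed loci that are poorly annotated. A difference that belongs to the severe contusion and one that belongs to these 2 libraries cannot be told apart.

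Only the sham and severe groups had libraries with at least 20 endothelial cells, so that the UMI sums of these 4 libraries were compared. Of 7682 genes tested, 25 passed an adjusted p of 0.05 (0.325%) by edgeR's quasi-likelihood test with Benjamini-Hochberg adjustment. Of these, 18 rose in the severe cells (0.234%) and 7 fell (0.0911%). In all 25 the severe libraries lay outside the range of the sham libraries. At an unadjusted p under 0.05 there were 625 higher genes (8.14%) and 585 lower genes (7.62%), and 1128 genes had both severe libraries above both sham libraries (14.7%) while 2876 had both below (37.4%). The median log2 fold change over all genes was -0.05, and it was -0.31 when libraries were scaled by their totals alone, under which 6 genes passed, 3 in each direction. DESeq2, a second count model, passed 164 genes (2.13%), all 25 among them. Some of its further calls are named beside the lists.

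The number of calls changed with single libraries, in fits where 1 group kept 1 library and its spread was assumed to be that of the other group. Without sham replicate 1, which held most of the sham cells, no gene passed the edgeR test (1171 genes at an unadjusted p under 0.05), whereas 288 passed without sham replicate 2, 121 without severe replicate 1 and 282 without severe replicate 2. The 25 genes held their direction in each of these fits that tested them. For 11 of the 25 both severe libraries also lay at least 4 times above or below both sham libraries in the remaining cells, in the same direction. When the change in endothelial cells was set against the change in the remaining cells of the same libraries, no gene passed edgeR's quasi-likelihood test (488 genes at an unadjusted p under 0.05, smallest Benjamini-Hochberg adjusted p = 0.329), so that no change is shown here to be particular to endothelial cells.

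The list of leukocyte adhesion genes and chemokines lay on the higher side. Of its 12 tested members, 7 were higher and 1 lower at an unadjusted p under 0.05, against 8.14% and 7.62% of all genes. The median log2 fold change was 1.5. Cxcl1 (ENSRNOG00000002802), a chemokine that attracts neutrophils, was the member that passed edgeR's test. It stood at 47.7 and 30.6 CPM in the sham cells and at 831 and 541 CPM in the severe cells. Each severe library was more than 10 times above each sham library, and the log2 fold change was 4.29 ± 0.42 (SE; edgeR adjusted p = 0.0216).

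Cxcl1 was also among the genes that set the severe libraries apart in all cells, at 129 and 372 CPM in the remaining sham cells and 2637 and 4539 CPM in the remaining severe cells. After thinning each cell to 1000 UMIs, 31.6% and 17.0% of the severe endothelial cells had a Cxcl1 UMI (63.2% and 57.0% before thinning), against 53.2% and 72.0% of cells with more than 10 UMIs of Tyrobp. In the sham libraries the thinned share was 2.66% and 0 of 46 cells, which allows up to 6.52% (3 counts of 46), against 5.80% and 16.6% of the cells with Tyrobp. The endothelial shares lay below those of the myeloid cells in all 4 libraries, but in sham replicate 1 their exact 95% binomial intervals overlapped (0.869% to 6.10% and 3.92% to 8.22%, counting error only). The RNA of endothelial cells and free RNA cannot be told apart for this gene.

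The promoter of Cxcl1 is shown because the kB motif that NF-kB proteins bind, which inflamed endothelium is known for, lies in it. The sequence is from RefSeq (GRCr8, chr14:17479322-17479471, minus strand) and ends at the base before the annotated start, with matches to the letters GGG, any 2 bases and TTTCC, on either strand, in capitals, 102 to 93 and 84 to 75 bases before it.
Cxcl1 promoter: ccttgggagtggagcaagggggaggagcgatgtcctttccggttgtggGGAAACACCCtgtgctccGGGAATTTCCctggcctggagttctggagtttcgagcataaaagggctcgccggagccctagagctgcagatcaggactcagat
The motif was found in the 250 bases before the start in 1.30% of 33469 RefSeq promoters and in 3 of the 11 list members with an entry, Cxcl1, Cxcl2 and Il6. Here and in the promoters below, a list member counted when any of its windows held the letters, while the percent is taken over windows. These rates are thus unlike. A match is a description of letters and no measure of binding.

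Other members of the list did not pass edgeR's test, while DESeq2 passed Icam1 and Vcam1 as higher and Cxcl12 as lower. Icam1, the adhesion receptor that leukocytes bind on the vessel wall, was at 25.0 and 30.6 CPM in the sham and 87.6 and 172 CPM in the severe cells, with a log2 fold change of 2.54 (edgeR adjusted p = 0.0605). Vcam1, a second such receptor, was at 19.2 and 13.6 CPM and at 31.4 and 115 CPM. Cxcl2, a neutrophil chemokine, was at 30.3 and 3.39 CPM and at 267 and 48.2 CPM, and its level in the remaining cells was at least 624 CPM in each library. Cxcl12, a chemokine of resting capillaries, was the member on the lower side, at 607 and 944 CPM in the sham and 242 and 215 CPM in the severe cells (log2 fold change -1.49, edgeR adjusted p = 0.103). The groups did not overlap for any of these 4 genes. On the higher side this held for 14.7% of all genes and on the lower side for 37.4%. Against the remaining cells of the same libraries the median change of the list was 0.26, with no member at an unadjusted p under 0.05.

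Genes of vessel sprouting and matrix were among the rises. Kcne3 (ENSRNOG00000017054), a potassium channel subunit that marks tip cells at the front of a sprout, was at 1.78 and 0 CPM in the sham and 115 and 41.9 CPM in the severe cells. This was 4 UMIs in the sham cells against 106 and 66 UMIs in the severe cells, the groups did not overlap, and the log2 fold change was 5.78 ± 0.79 (edgeR adjusted p = 0.0438). Its level in the remaining cells was at most 1.86 CPM in each of these libraries. Among the 16 tested genes of the tip cell list 6 were higher and none lower at an unadjusted p under 0.05. By that measure 8.14% of all genes were higher and 7.62% lower. The list had a median log2 fold change of 0.71. That median was 1.79 without sham replicate 1, 0.42 without sham replicate 2 and 0.36 without severe replicate 1, each with 1 lower member.

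Col15a1 (ENSRNOG00000060381), a collagen of the outer basement membrane, was at 10.3 and 10.2 CPM in the sham and 241 and 95.2 CPM in the severe cells. Both severe libraries were above both sham libraries, with a log2 fold change of 4.24 ± 0.56 (edgeR adjusted p = 0.0438). The remaining cells had 13.5 and 14.4 CPM in the sham and 58.8 and 20.1 CPM in the severe libraries. Of the 16 tested basement membrane and matrix genes 5 were higher and none lower at an unadjusted p under 0.05. Among all genes 8.14% were higher and 7.62% lower. The list median was 0.27 (0.02 when scaled by library totals, 0.45 to 0.77 when 1 library was left out). Against the remaining cells it was -0.04. Col18a1, the vessel collagen that yields endostatin, was at 45.9 and 27.2 CPM and at 321 and 140 CPM, with a log2 fold change of 2.78 (edgeR adjusted p = 0.0605; it passed with DESeq2). Sparc and Col4a1, the most abundant members, had log2 fold changes of 0.75 and 0.69, and for Col4a1 the groups overlapped.

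Of the 9 tested coagulation and fibrinolysis genes 2 were higher and none lower at an unadjusted p under 0.05. The shares of all genes were 8.14% higher and 7.62% lower. By edgeR's adjusted test 1 member passed as higher, and the median was 0.65. That median was 0.43 without sham replicate 2 and 0.09 against the remaining cells. Procr, the receptor of protein C, was at 116 and 57.7 CPM in the sham and 235 and 159 CPM in the severe cells. Its log2 fold change was 1.35 (edgeR adjusted p = 0.190). The groups did not overlap, as for 14.7% of all genes on the higher side.

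Igfbp2 (ENSRNOG00000016957), a binding protein of insulin-like growth factors, was at 4.01 and 0 CPM in the sham cells and at 156 and 62.2 CPM in the severe cells. The groups did not overlap and the log2 fold change was 5.19 ± 0.72 (edgeR adjusted p = 0.0438), though the remaining cells of sham replicate 1 held 114 CPM, close to the 117 CPM of severe replicate 1. Igfbp3, a related binding protein on the tip cell list, was at 77.6 and 0 CPM and at 822 and 335 CPM (log2 fold change 3.83, edgeR adjusted p = 0.148). Plvap, the diaphragm protein of fenestrated and leaky vessels, was at 3.57 and 23.8 CPM in the sham and 298 and 119 CPM in the severe cells. Both severe libraries were at least 5 times above both sham libraries for Plvap, and its log2 fold change of 4.92 had an edgeR adjusted p of 0.0586, while it passed with DESeq2. The other 6 tested genes of permeability and caveolae did not share this, since Cav1 overlapped between the groups and Cavin2, at 500 and 244 CPM in the sham and 85.5 and 171 CPM in the severe cells, was lower (unadjusted p = 0.0297). The median of that list was -0.11, between -0.08 and 0.15 when 1 library was left out and -1.11 against the remaining cells.

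**Figure D2:**
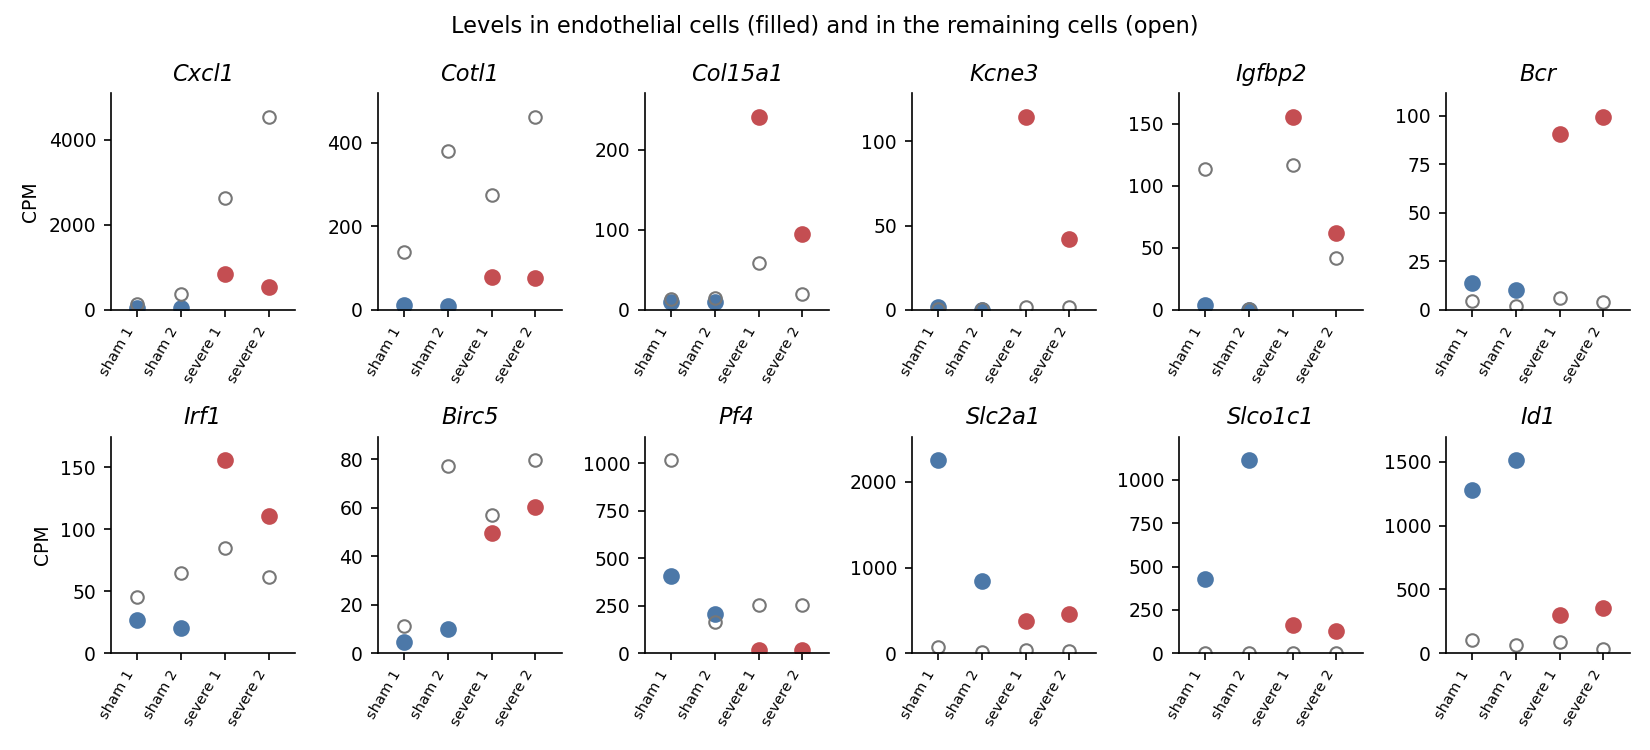
Levels of 12 genes in CPM in the endothelial cells (filled points) and in the remaining cells (open points) of the 4 libraries with at least 20 endothelial cells. Cxcl1, Cotl1, Col15a1, Kcne3, Igfbp2, Bcr, Irf1 and Birc5 passed the test as higher and Pf4 as lower; Slc2a1, Slco1c1 and Id1 did not pass, and the remaining cells of the severe libraries exceed the endothelial cells for Cotl1, Birc5, Pf4 and Cxcl1 (2637 and 4539 CPM).

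Genes of the barrier lay on the lower side in the severe cells, although no member passed edgeR's adjusted test in the main comparison. Of 14 tested barrier transporters 11 were lower and 1 was higher at an unadjusted p under 0.05, where 7.62% of all genes were lower. Both severe libraries lay below both sham libraries for 13 members, against 37.4% of all genes. The median log2 fold change was -1.38 against -0.05 for all genes. Slc2a1, the glucose transporter of the barrier, was at 2252 and 838 CPM in the sham and 377 and 456 CPM in the severe cells. The sham libraries differed from each other by more than the nearer of them differed from the severe libraries, and the log2 fold change of -1.65 had an edgeR adjusted p of 0.187. After thinning to 1000 UMIs, 84.6% and 65.2% of the sham cells and 35.1% and 35% of the severe cells had a Slc2a1 UMI, against at most 6.40% of cells with more than 10 UMIs of Tyrobp. Before thinning the shares were 98.9% and 87.0% in the sham and 87.7% and 88.0% in the severe cells, against 18.4%, 10.6%, 37.2% and 41.2% of the cells with Tyrobp in the same order of libraries.

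Slco1c1, which carries thyroid hormone, was at 428 and 1113 CPM in the sham and 162 and 126 CPM in the severe cells (log2 fold change -2.14, edgeR adjusted p = 0.0949). Slco1a4 was at 1287 and 4151 CPM and at 965 and 964 CPM, and Slc22a8, an organic anion transporter, at 104 and 312 CPM and at 45.4 and 53.9 CPM. For all 3 the severe libraries were below both sham libraries, as for 37.4% of all genes, and sham replicate 2 was the highest. Mfsd2a, the lipid transporter that keeps transcytosis low, was at 124 and 210 CPM in the sham and 42.2 and 40.6 CPM in the severe cells (edgeR adjusted p = 0.0879), and the drug efflux pump Abcg2 at 569 and 516 CPM and at 158 and 192 CPM (edgeR adjusted p = 0.108). The member on the higher side, named after its values were seen, was the glutamine transporter Slc38a5, at 101 and 156 CPM in the sham and 227 and 338 CPM in the severe cells (log2 fold change 1.44, edgeR adjusted p = 0.146).

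Without sham replicate 1, 9 of 13 tested members were lower at an unadjusted p under 0.05, and without severe replicate 1, 6 of 14. Without sham replicate 2, the library with the highest Slco1c1, Slco1a4 and Slc22a8, the median was -0.86 and 7 of 14 were lower. DESeq2 passed 5 members as lower, Abcg2, Slco1c1, Slc2a1, Mfsd2a and Slc7a1. With no filter on low counts edgeR passed 9 of 14 members, Slc38a5 among them as higher, and 562 of all 14803 genes. Against the remaining cells of the same libraries the median was -0.58 and 2 members were lower at an unadjusted p under 0.05. Of the 10 markers of capillary endothelium, several of them the same transporters, 7 were lower and none higher at an unadjusted p under 0.05. Among all genes 7.62% were lower and 8.14% higher. The capillary median was -1.30. Without sham replicate 2 that median was -0.61, with 3 lower and 1 higher, and against the remaining cells it was -0.78, with 2 lower. Pericyte and smooth muscle markers were lower in the same libraries, 8 of 9 at an unadjusted p under 0.05, against 7.62% of all genes. Their median was -1.99. DESeq2 passed Kcnj8, Rgs5 and Pdgfrb among these markers as lower. The part of these markers in the transporter and capillary results was not tested.

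Genes of Wnt signalling in the barrier lay partly on the lower side. Of 14 tested members 3 were lower and none higher at an unadjusted p under 0.05, against 7.62% and 8.14% of all genes. The median was -0.66, or -0.73 against the remaining cells. Apcdd1, a Wnt target and antagonist, was at 498 and 251 CPM in the sham and 116 and 111 CPM in the severe cells (log2 fold change -1.50, edgeR adjusted p = 0.159). The groups did not overlap for Apcdd1, as for 37.4% of all genes on the lower side. Sox17 overlapped between the groups, with a log2 fold change of 0.00.

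Tight and adherens junction genes had a median of -0.24, which was -0.13 without sham replicate 1, -0.41 without severe replicate 1 and -0.43 without severe replicate 2. Against the remaining cells it was 0.44, on the higher side. Of the 9 tested members only Tjp1, a scaffold of the junction, was lower at an unadjusted p under 0.05, at 255 and 350 CPM in the sham and 145 CPM in each severe library. Esam, the most abundant member outside the rule, was at 813 and 747 CPM and at 912 and 1036 CPM. Ocln, the membrane protein occludin, was at 92.3 and 244 CPM and at 53.0 and 77.4 CPM (edgeR adjusted p = 0.354).

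Cell cycle genes lay higher in the severe cells. All 16 tested members had a positive log2 fold change, and the median was 2.05. At an unadjusted p under 0.05, 10 were higher, against 8.14% of all genes. Both severe libraries lay above both sham libraries for 13 members, against 14.7% of all genes. Birc5 (ENSRNOG00000050819), the mitotic protein survivin, was the member that passed edgeR's test. It was at 4.46 and 10.2 CPM in the sham and 49.8 and 60.3 CPM in the severe cells, without overlap, and its log2 fold change was 3.54 ± 0.48 (edgeR adjusted p = 0.0438). DESeq2 passed Birc5, Mki67, Top2a and Cdk1, whereas by edgeR no member passed with Tyrobp and collagen at 0 (Birc5 adjusted p = 0.241) or without sham replicate 1. Mki67, the proliferation marker Ki-67, was at 2.68 and 10.2 CPM and at 50.9 and 39.3 CPM (log2 fold change 3.69, edgeR adjusted p = 0.0572). Rrm2, a subunit of ribonucleotide reductase, was at 0 and 3.39 CPM and at 13 and 10.1 CPM. The abundant member Tubb5 was at 590 and 407 CPM in the sham and 608 and 716 CPM in the severe cells, with a log2 fold change of 0.65.

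Among the 25 calls there were 3 further genes of division that the list does not hold. Spc24, a kinetochore subunit, was at 2.68 and 10.2 CPM in the sham and 77.9 and 58.4 CPM in the severe cells. Cks1b, a subunit of cyclin-dependent kinases, was at 11.2 and 13.6 CPM and at 85.5 and 56.5 CPM. Nusap1, a protein of the mitotic spindle, had no UMI in either sham library and stood at 24.9 and 20.9 CPM in the severe cells. These 3 genes were named after their values were seen, and for each the groups did not overlap.

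Counted by cell, 10 of 57 and 11 of 100 severe endothelial cells (17.5% and 11%) had UMIs of at least 3 of 8 cycle genes, against 0 of 188 (up to 1.60% is possible) and 1 of 46 (2.17%) sham cells. These shares were not thinned, and the median UMI number per cell was 9464 and 4708 in the sham and 14710 and 12302 in the severe cells. In the remaining cells Birc5 was at 11.2 and 77.3 CPM in the sham and 57.2 and 79.6 CPM in the severe libraries. The change of the cell cycle list against these remaining cells had a median of 1.52, with 10 of 16 members higher at an unadjusted p under 0.05. With Tyrobp and collagen at 0 in every counted cell, 9 members could be tested, 4 were higher and the median was 0.52. Without sham replicate 1 it was 1.60, with 5 members higher.

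The promoter of Birc5 is shown for the CHR element that late cell cycle genes are known to carry. The stretch is from RefSeq (GRCr8, chr10:103571996-103572145, plus strand), ends at the base before the annotated start, and has the letters TTTGAA in capitals, 8 to 3 bases before it.
Birc5 promoter: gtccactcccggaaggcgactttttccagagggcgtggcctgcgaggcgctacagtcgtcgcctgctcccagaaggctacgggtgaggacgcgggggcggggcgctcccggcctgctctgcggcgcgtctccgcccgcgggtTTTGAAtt
These 6 letters, on either strand, were present in 16.2% of the 33469 windows and in 7 of the 16 cell cycle genes with an entry.

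Interferon response genes divided in direction. Irf1 (ENSRNOG00000008144), a transcription factor induced by interferon gamma and by NF-kB, was at 26.8 and 20.4 CPM in the sham and 156 and 110 CPM in the severe cells. The groups did not overlap, and the log2 fold change was 2.66 ± 0.37 (edgeR adjusted p = 0.0438). In the remaining cells Irf1 was at 45.5 and 64.5 CPM in the sham and 84.5 and 61.9 CPM in the severe libraries. The other tested members lay mostly lower, with a list median of -1.20. At an unadjusted p under 0.05, 7 of the 12 were lower, against 7.62% of all genes. For 10 members both severe libraries lay below both sham libraries, against 37.4% of all genes. Without sham replicate 1 the median was -0.61, with 4 of 11 lower. DESeq2 passed Isg15 and Irf7 as lower beside Irf1.

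Isg15, a ubiquitin-like protein of the antiviral response, was at 292 and 272 CPM in the sham and 85.5 and 73.6 CPM in the severe cells (log2 fold change -1.58, edgeR adjusted p = 0.0716). Ifit1, which binds foreign RNA, was at 14.7 and 23.8 CPM and at 1.08 and 1.27 CPM. Rsad2, the antiviral enzyme viperin, was at 18.3 and 30.6 CPM and at 7.57 and 1.27 CPM. The sham libraries were the higher ones for all 3, and the levels were low for Ifit1 and Rsad2. Ifit1 was at 20.3 and 4.50 CPM in the remaining sham cells and at 0.860 and 0.723 CPM in the remaining severe cells. Set against the remaining cells, the list median was 0.18 and none of the 12 was lower at an unadjusted p under 0.05.

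Both kinds of interferon element occur in these promoters, and 1 of each is shown. The Irf1 stretch (RefSeq GRCr8, chr10:38417773-38417934, plus strand) has a GAS element, through which interferon gamma acts, with the letters TTCNNNGAA in capitals 142 to 134 bases before the start, and the Rsad2 stretch (RefSeq GRCr8, chr6:48788121-48788287, minus strand) an ISRE, the letters GAAA, any 2 bases and GAAA again, read here on the opposite strand, 147 to 138 bases before it.
Irf1 promoter: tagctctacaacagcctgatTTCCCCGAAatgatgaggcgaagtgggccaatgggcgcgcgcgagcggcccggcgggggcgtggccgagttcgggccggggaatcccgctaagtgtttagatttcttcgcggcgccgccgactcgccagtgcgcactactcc
Rsad2 promoter: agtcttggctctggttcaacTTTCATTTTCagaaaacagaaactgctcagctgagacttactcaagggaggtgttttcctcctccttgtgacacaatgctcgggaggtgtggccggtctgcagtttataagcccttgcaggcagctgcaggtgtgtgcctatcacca
The GAS letters were in 7.67% of all windows and in 4 of the 9 members with an entry, and the ISRE letters in 3.41% and in 7 of 9.

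Signalling through TGF-beta and BMP showed no call by edgeR, while DESeq2 passed Id1 as lower. Id1, a target of BMP receptors in endothelium, was at 1280 and 1514 CPM in the sham and 299 and 358 CPM in the severe cells, and its log2 fold change of -1.82 had an edgeR adjusted p of 0.0605. Every sham value was more than 3 times every severe value. Thinned to 1000 UMIs, 64.4% and 69.6% of the sham and 24.6% and 24.0% of the severe cells had an Id1 UMI, against 17%, 6.6%, 5% and 2.4% of cells with more than 10 UMIs of Tyrobp in the same order of libraries. Before thinning the endothelial shares were 93.1% and 95.7% in the sham and 77.2% and 67.0% in the severe cells. Of the 9 tested members 3 were lower and none higher at an unadjusted p under 0.05, against 7.62% and 8.14% of all genes. The median was -0.82 (-0.31 with 1 lower against the remaining cells). Tgfbr3, a co-receptor, was at 79.8 and 81.5 CPM in the sham and 20.6 and 28.5 CPM in the severe cells.

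Receptors of the vascular growth factors gave mixed values. Of 9 tested members of the VEGF and angiopoietin list 2 were higher and 1 lower at an unadjusted p under 0.05. By that measure 8.14% of all genes were higher and 7.62% lower. The list median of -0.10 turned positive without either sham library or severe replicate 2 (0.08, 0.28 and 0.29) and against the remaining cells (0.31). Pgf, placental growth factor, was at 4.01 and 0 CPM in the sham and 26.0 and 46.3 CPM in the severe cells (edgeR adjusted p = 0.0667), and Nrp2, a co-receptor, at 2.68 and 6.79 CPM and at 33.5 and 22.8 CPM (edgeR adjusted p = 0.0666). Ptprb, the phosphatase that restrains the Tie2 receptor, was at 298 and 282 CPM and at 90.9 and 94.5 CPM (log2 fold change -1.39, edgeR adjusted p = 0.0892). None of these 3 genes overlapped between the groups, as for 14.7% of all genes on the higher and 37.4% on the lower side. DESeq2 passed Pgf and Nrp2. Tie1 had a log2 fold change of 0.63 with an unadjusted p of 0.192.

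Notch genes had 1 higher and 1 lower member among 9 at an unadjusted p under 0.05, against 8.14% and 7.62% of all genes. Heyl, a Notch target, was at 13.4 and 17.0 CPM in the sham cells and at 0 and 0.635 CPM in the severe cells, where the latter is 1 UMI. Heyl is also known from pericytes, whose markers were lower in the same libraries, and their part in the Heyl values was not tested. Hes1 was at 84.3 and 81.5 CPM and at 355 and 74.2 CPM, so that severe replicate 1 alone stood out.

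Of 15 tested endothelial transcription factors 2 were lower and none higher at an unadjusted p under 0.05, against 7.62% and 8.14% of all genes. The list median was -0.09. That median was -0.30 without sham replicate 1, -0.15 without severe replicate 1 and -0.16 without severe replicate 2. Klf2, which responds to blood flow, was at 66.9 and 54.3 CPM in the sham and 16.2 and 15.9 CPM in the severe cells. Its log2 fold change was -1.70 (edgeR adjusted p = 0.0830). The groups did not overlap, as for 37.4% of all genes on the lower side. Klf4 was at 249 and 356 CPM and at 250 and 222 CPM. Hypoxia and glycolysis genes had 7 higher and 2 lower members of 16 at an unadjusted p under 0.05 and a median of 0.72, which was -0.07 against the remaining cells. Tpi1, a glycolytic enzyme, was at 9.37 and 33.9 CPM and at 68.2 and 59.0 CPM, and the lower members included Slc2a1. Immediate early genes had 4 higher and 1 lower of 16 and a median of 0.57, which was 0.10 with 1 higher without sham replicate 1, 1.34 with 10 higher without sham replicate 2, 0.91 without severe replicate 1 and 0.33 without severe replicate 2, and 1.13 against the remaining cells. Ier3, a stress response gene, was at 205 and 557 CPM in the sham and 1730 and 1380 CPM in the severe cells. The groups were apart, as for 14.7% of all genes on the higher side (log2 fold change 2.32, edgeR adjusted p = 0.0864). DESeq2 passed Ier3 and, among the glycolysis genes, Pgk1 and Slc2a1.

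The other lists gave few differences, and the signs of their medians turned with single libraries. At an unadjusted p under 0.05, 8.14% of all genes were higher and 7.62% lower. By this measure genes of antigen presentation had 1 lower and no higher member of 8, with a median of 0.01. Lipid handling had 1 higher and 1 lower of 7 (median -0.62), and iron and oxidative stress 1 higher and 1 lower of 10 (median -0.13). Without sham replicate 1 these 3 medians were 0.49, 0.03 and 0.61, and without sham replicate 2 they were -0.53, 0.89 and -0.41, and against the remaining cells -0.17, -0.18 and -0.23. Ftl1, the ferritin light chain, was the higher iron gene at 767 and 1269 CPM in the sham and 1862 and 1943 CPM in the severe cells (unadjusted p = 0.0108). In the remaining cells Ftl1 was far more abundant, at 1609 and 7525 CPM in the sham and 14300 and 15210 CPM in the severe libraries.

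**Figure D3:**
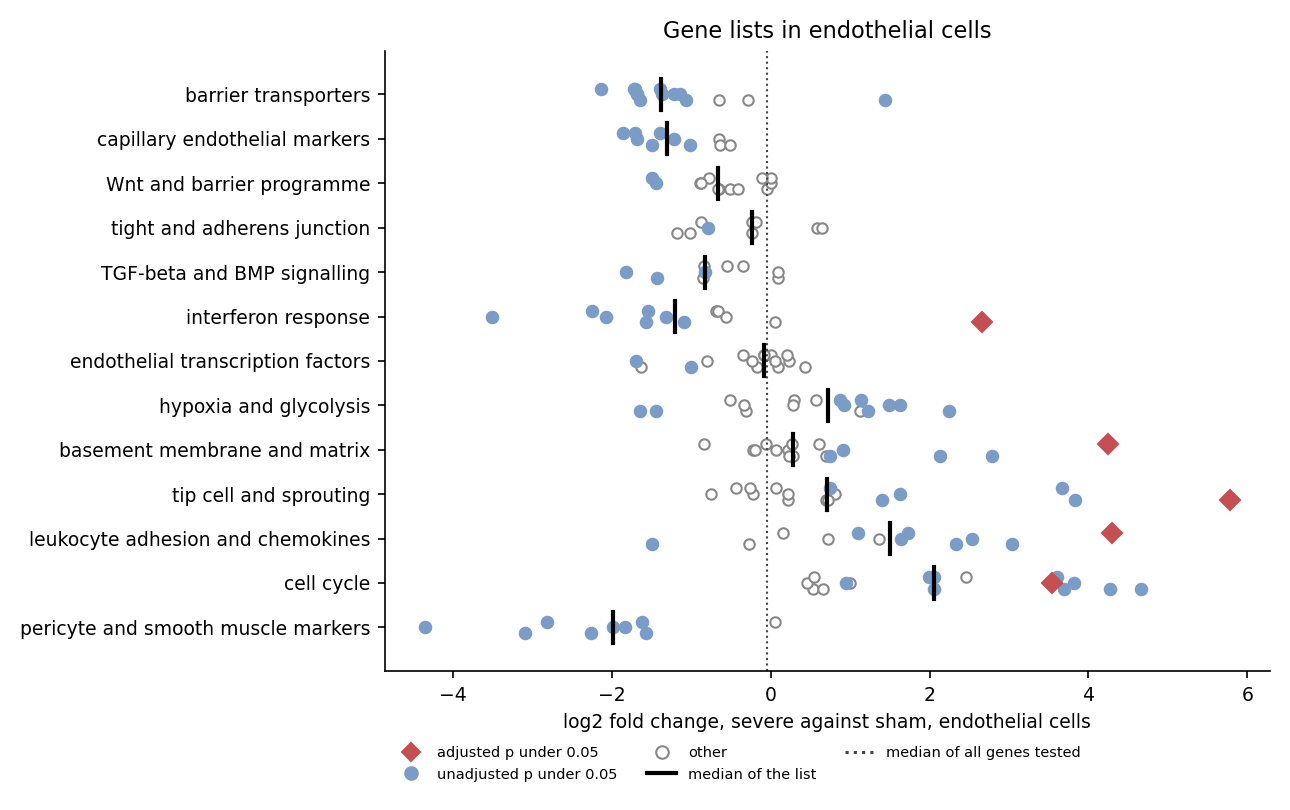
Log2 fold changes of the tested members, apart from a few genes left out, of 13 gene lists in endothelial cells, severe against sham, 4 libraries. Diamonds passed the adjusted test, filled circles an unadjusted p under 0.05, open circles neither; black bars are list medians, from -1.99 for pericyte and smooth muscle markers to 2.05 for the cell cycle, and the dotted line is the median of all 7682 genes at -0.05.

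Of the remaining calls, Bcr was the only gene whose endothelial level exceeded that of the remaining cells in all 4 libraries. Bcr (ENSRNOG00000001304), a signalling protein, was at 13.8 and 10.2 CPM in the sham and 90.9 and 99.6 CPM in the severe cells. The groups were far apart, with a log2 fold change of 3.12 ± 0.38 (edgeR adjusted p = 0.0438), and the remaining cells held 4.32 and 1.95 CPM in the sham and 5.83 and 3.87 CPM in the severe libraries. Cotl1, an actin-binding protein abundant in leukocytes, was at 11.6 and 10.2 CPM and at 77.9 and 76.8 CPM, while its level in the remaining cells was at least 137 CPM in each library.

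Pf4 (ENSRNOG00000028015), a chemokine known from platelets and macrophages, was the only named gene among the falls besides Sumo4. It was at 405 and 207 CPM in the sham and 18.4 and 15.9 CPM in the severe cells, without overlap, and fell by 3.94 ± 0.45 on the log2 scale (edgeR adjusted p = 0.0438). In the remaining cells it was at 1016 and 167 CPM in the sham and 256 and 255 CPM in the severe libraries. Erythroid and macrophage markers in the endothelial cells are given above, and their part in the Pf4 values was not tested.

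Most of the other calls were genes that may have near-identical copies or that have no name, and they moved alike in the remaining cells. Rps19 (ENSRNOG00000037897), a protein of the small ribosomal subunit, was at 132 and 149 CPM in the sham and 1951 and 1348 CPM in the severe endothelial cells, and at 89.2 and 178 CPM and 1498 and 1082 CPM in the remaining cells. Sumo4 was at 212 and 384 CPM and at 14.1 and 2.54 CPM in endothelial cells, and at 112 and 329 CPM and 8.90 and 3.94 CPM in the remaining cells. The loci LOC108351137, LOC108349682 and LOC108348142 rose as well, and AABR07025010.1, AC128960.1, AABR07002792.2, AC108595.1 and AABR07046628.1 fell. LOC108351137 was at 133 and 81.5 CPM in the sham and 2039 and 1824 CPM in the severe cells, and AABR07025010.1 at 112 and 81.5 CPM and at 4.33 and 3.17 CPM. LOC680121 had no UMI in the sham endothelial cells and stood at 29.2 and 25.4 CPM in the severe ones, and Nhp2, a protein of small nucleolar particles, was at 4.01 and 10.2 CPM and at 57.3 and 46.3 CPM. How the authors' counting treated reads of near-identical copies was not tested, and these values are uncertain as levels of single genes. All 8 libraries carry the same gene list. The Cell Ranger version was read from the header of sham replicate 1 alone. Whether the severe libraries were otherwise handled like the rest was not tested. Of the 17 genes that set them apart in cells with Tyrobp, 9 are among the 25 calls.

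**Figure D4:**
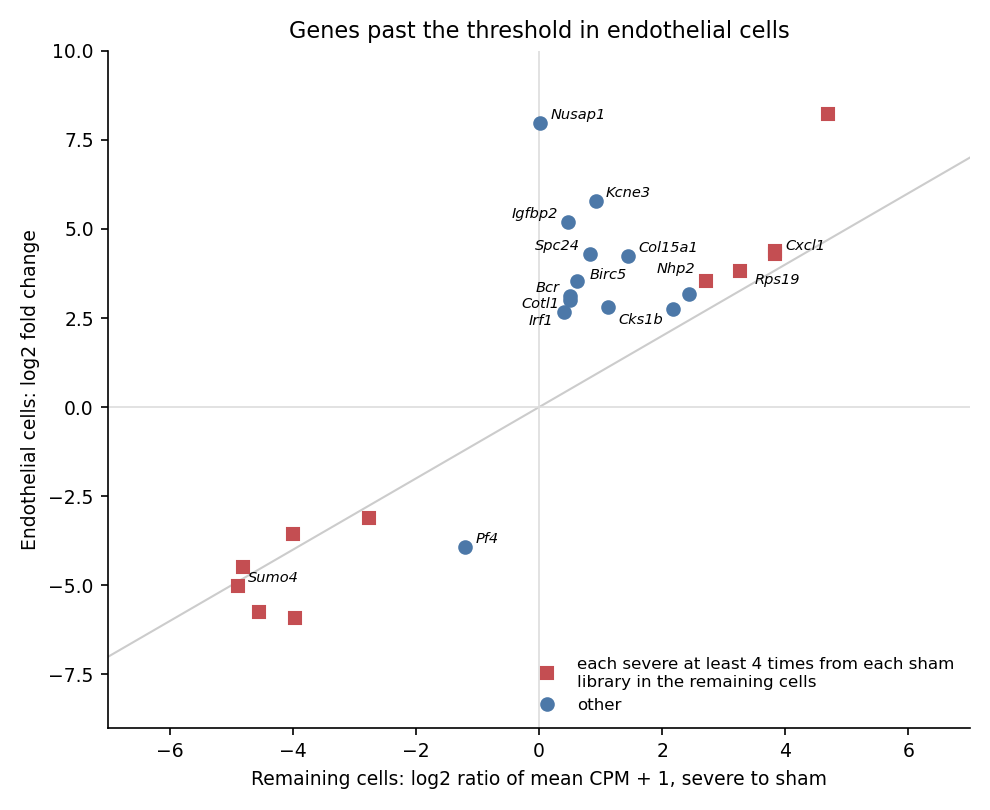
Genes past the threshold, 24 of the 25, with the log2 fold change in endothelial cells (vertical) against the log2 ratio of mean CPM + 1 in the remaining cells of the same 4 libraries (horizontal); squares mark 11 genes for which both severe libraries lay at least 4 times above or below both sham libraries in the remaining cells as well. Most squares lie near the diagonal of equal change, LOC680121 lies above it, and Kcne3, Igfbp2, Col15a1, Bcr, Irf1 and Birc5 do too; the fitted values of Nusap1 and LOC680121 rest on 0 UMIs in the sham libraries.

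The mild and moderate libraries had few endothelial cells. In a fit of all 8 libraries with 4488 genes, 6 genes passed edgeR's adjusted test for mild (0.134%), 8 for moderate (0.178%) and 25 for the 3 injured groups together (0.557%) against sham, and 18 for severe against mild (0.401%). In the 18 cells of mild replicate 2, Slc2a1 was at 1687 CPM, Slco1c1 at 216 CPM, Id1 at 517 CPM and Isg15 at 105 CPM. Slc2a1 lay between the sham libraries, and the other 3 lay between the sham and the severe libraries. Kcne3 was at 15.8 CPM (3 UMIs), and Plvap at 15.8 CPM, in these cells. The 2 cells of mild replicate 1 held 26 UMIs of Kcne3, so that a few cells decide these levels. All 3 cells of moderate replicate 2 were among the cells with the highest doublet scores.

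The 418 cells fell into 8 groups by unsupervised clustering, which are described by their leading genes and not compared in size between the groups of animals. Several were nearly of 1 library, with 85 of 85 cells of cluster 1 and 69 of 72 cells of cluster 2 from sham replicate 1, and a cluster of that kind may be that library and not a type. Cluster 1 was led by Cd74, S100a9, Stc1, Akap12 and Adamts9, and 4 of 10 neutrophil markers were raised in it, with S100a9 at 1882 CPM against 320 CPM in the other clusters. Its Flt1 level of 2182 CPM was the highest of the 8 clusters, while its Cldn5 level of 4084 CPM lay within their range.

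Clusters 2 and 7 were capillary-like, with 8 and 10 of the 10 capillary markers raised. Cluster 2 was led by Ccl5, Selenop and Degs2, and had Slc2a1 at 2575 CPM and Slco1a4 at 2380 CPM. Cluster 7 had 39 of its 65 cells from sham replicate 2 and 22 from the severe libraries, with Ddc, Notum, Slc22a8, Prom1, Tfrc and Slc7a5 among its leading genes and Slco1a4 at 4157 CPM. It also had the lowest median UMI number per cell, 5250, and the highest median mitochondrial share, 6.003%.

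Cluster 4, with 53 of 67 cells from the severe libraries and 11 from the mild and moderate ones, held 8 of 9 tip cell markers, 4 of 7 markers of fenestrated endothelium and 9 of 10 cycling markers raised. Kcne3 was at 184 CPM in it against 0.977 CPM in the other clusters, Plvap at 348 against 13.2 CPM and Igfbp3 at 993 against 68.7 CPM. Its Slc2a1 level of 303 CPM was the lowest of the 8 clusters, as was its Slco1a4 level of 210 CPM. Of its cells 29.9% were among those with the highest doublet scores, and the median UMI number was 13880. Since this cluster mixes the markers of tip cells, fenestrated vessels and division, no name is given to it.

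Cluster 8, with 62 of 69 cells from the severe libraries, was led by Cxcl2, Cxcl1, Cxcl11, Slc38a5, Rgs16 and Ier3 and had 4 of 11 venous markers raised. Cxcl1 was at 880 CPM, Icam1 at 121 CPM and Slc38a5 at 516 CPM in it, and 1.45% of its cells were among the top doublet scores. Cluster 6, with 13 of 18 cells from severe replicate 2, was led by Abi3bp, Clu and Vcam1 and had 7 venous but also 6 of 12 fibroblast markers raised, with Vcam1 at 742 CPM, Icam1 at 512 CPM and Mgp at 6473 CPM. Dcn, a fibroblast proteoglycan, was among its leading genes, and it stays without a name.

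The last 2 clusters held transcripts of neighbouring cell types. Cluster 3, with 24 of 34 cells from sham replicate 1, had 10 of 12 pericyte and smooth muscle markers raised and 6 of them among its 10 leading genes, with Rgs5 at 888 CPM against 33.0 CPM elsewhere, beside Cldn5 at 4494 CPM. Its median UMI number of 18970 was above that of all clusters but cluster 5, and 29.4% of its cells were among the top doublet scores. Cluster 5 had 8 cells, all 10 oligodendrocyte markers raised, Mag at 2113 CPM against 13.4 CPM elsewhere, and 87.5% of its cells among the top doublet scores. In clusters 3 and 5 the leading genes go against the label, although endothelial genes outside the rule were widely present. In cluster 3, Slc2a1 was detected in 97.1% and Cdh5, the cadherin of endothelial junctions, in 91.2% of cells, and in cluster 5 Cdh5 was detected in 100% and Vwf in 87.5%.

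**Figure D5:**
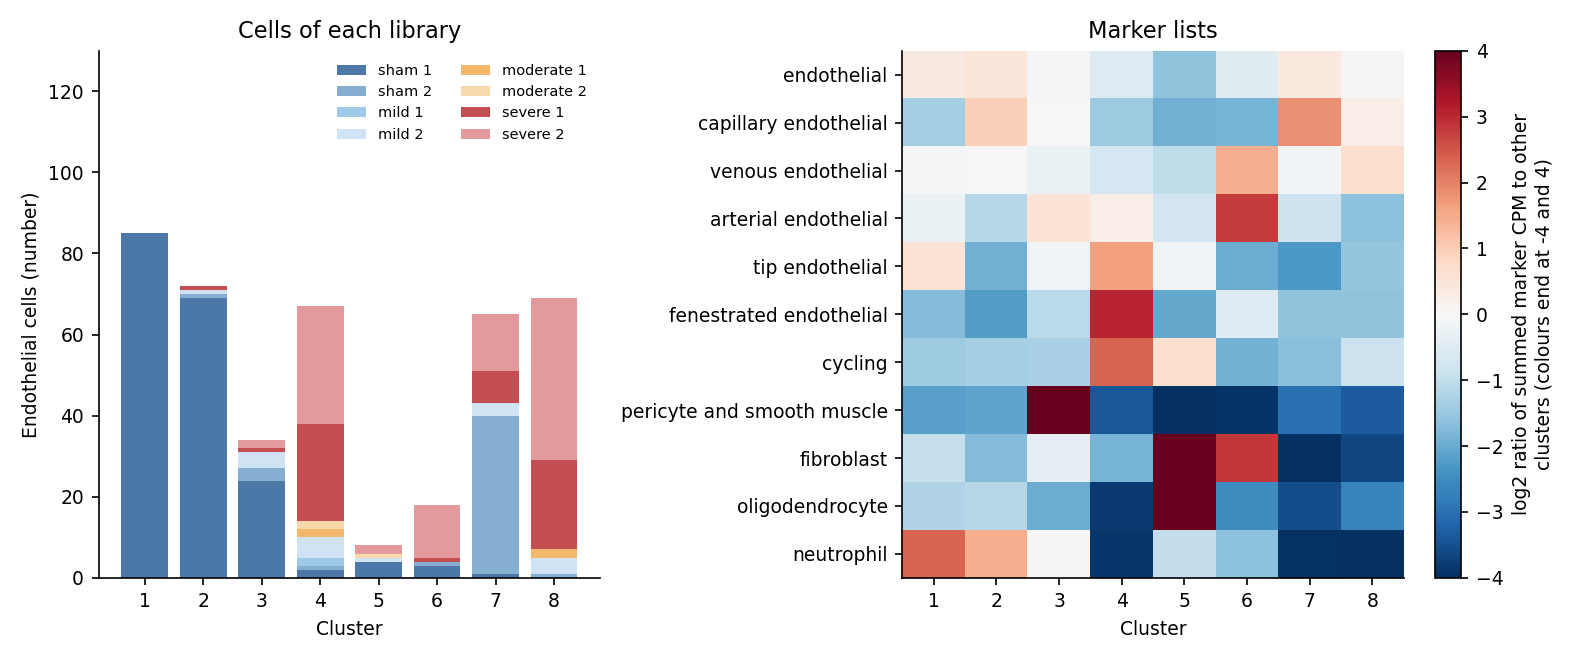
Left, number of endothelial cells of each library in the 8 clusters; right, log2 ratio of the summed CPM of 11 marker lists in a cluster to that in the other clusters (10 CPM added, colours end at -4 and 4). Cluster 1 is of sham replicate 1 alone, tip, fenestrated and cycling markers are highest in cluster 4, capillary markers in cluster 7, and pericyte markers in cluster 3.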

How the data were processed

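Cells of 8 libraries, 2 per group, were analysed. Per the file header of sham replicate 1, the only one read, the authors counted UMIs with Cell Ranger 5.0.1. The study's supplement names another version, and the submitters' processing notes give Rnor_6.0 and Seurat. The deposited values are raw counts per gene and cell for 32623 genes. No columns were left unassigned.

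The rule for endothelial cells, the gene lists and the marker lists were chosen with earlier results of these data known. UMIs were summed over the endothelial cells of each library with at least 20 such cells, genes kept by filterByExpr and tested with edgeR 4.0.16 (R 4.3.3, quasi-likelihood, TMM, Benjamini-Hochberg, threshold 0.05). Contrasts with the mild and moderate groups were left out of the main comparison, since none of their libraries reached 20 cells, and were fitted only in an alternative with all 8 libraries. Genes named are list members (per list, 2 of highest level and 2 of largest change), calls with a mean of at least 50 CPM (the 8 largest each way, likewise among genes above the remaining cells) and the 10 most enriched genes. A few genes are left out of the text and figures but stay in all counts, medians and adjusted p-values. The severe contrast took the place of the pooled injured contrast in this rule. Genes outside it were named after their values were seen, among them the other calls and Slc38a5, Icam1, Vcam1, Abcg2, Mfsd2a, Mki67, Isg15, Rsad2 and Tjp1.

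On counts simulated for this comparison, with 7102 unchanged and 200 changed genes, 76.0% of genes changed by 2 on the log2 scale, 9.00% of those changed by 1 and 0.0845% of unchanged genes passed. Doublets were scored with Scrublet (scanpy 1.11.5) and not removed, except in an alternative. Cells were clustered on 2000 variable genes and 15 principal components (Leiden, igraph 0.11.9, resolution 0.6); a marker counted as raised at a log2 difference of 0.5 and detection in 10% of cells. Exact tests used scipy 1.17.1 and tables Python 3.11.15, numpy 2.4.6 and pandas 2.3.3. Alternatives were DESeq2 1.42.0, the replicate number as a block, scaling by library totals, all genes without a count filter, other limits on cells, and leaving out each library.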

Additional observations from a re-analysis of the deposited data

Results flagged for a closer look

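Mild replicate 2 had 18 endothelial cells, too few for the comparison of groups, and Cxcl1 and Cotl1, which rose in the severe cells, were also above both sham libraries there. Cxcl1 was at 110.7 CPM (21 UMIs), against 47.7 and 30.6 CPM in the sham cells. Cotl1 was at 137 CPM (26 UMIs), against 11.6 and 10.2 CPM. In the remaining cells of that library Cxcl1 was at 404 and Cotl1 at 624 CPM, above the endothelial cells, and the 2 endothelial cells of mild replicate 1 had no UMI of Cxcl1 and 6 UMIs of Cotl1. The library was left out of the comparison of sham and severe cells. In the fit of all 8 libraries, mild against sham gave a log2 fold change of 0.89 ± 1.07 (SE; edgeR adjusted p = 0.834) for Cxcl1 and 3.66 ± 0.48 (edgeR adjusted p = 0.00711) for Cotl1, with 6 of 4488 genes called.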

How the results depend on the processing

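Against 25 genes past the threshold, 6 passed with scaling by library totals, 562 without the filter on low counts, 288 with libraries of at least 50 cells (the same fit as without sham replicate 2, with 1 sham library), 132 with doublets removed, 59 with Tyrobp and collagen at 0 and 164 with DESeq2. A stricter marker limit gave 28. Leaving out 1 library at a time gave 0 to 288, with 0 without sham replicate 1. Added after seeing the data, leaving out genes that differed at least 4 times in the remaining cells gave 0 (1173 at an unadjusted p under 0.05), and the change minus that of the remaining cells gave 0 (488 unadjusted). The cause of these differences was not tested. All 25 genes kept their direction in the fits on the endothelial sums that tested them, and all 25 were among the calls with doublets removed and with DESeq2. With Tyrobp and collagen at 0, 24 of the 25 could be tested and 19 were among the calls. Birc5, Col15a1, Nusap1 and Cks1b were among those not called. Fitting only the groups compared gave the same fit. All 8 libraries in 1 fit gave 31 calls, 15 of them among the 25.

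With the replicate number as a block 57 genes passed, all 25 among them, but the deviations of same-numbered libraries correlated at -0.241 across 2661 genes, which gives no sign of a pairing. A crossed pairing, added after seeing the data, gave 22, of which 17 were among the 25. Birc5, Irf1, Nusap1, Cks1b and Nhp2 were among those it did not call.

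With 2000 UMIs per cell the shares with a UMI were 93.4% for Slc2a1 in sham replicate 1, 56.7% for Slc2a1 and 29.9% for Cxcl1 in severe replicate 2. The difference in share of all cells lay between -1.24 and -1.58 points when 1 library was left out. Among cells that did not count as immune it lay between -5.91 and -17.4 points. A resolution of 1.0 gave 9 clusters in place of 8. With 46 cells, sham replicate 2 limits the precision of low genes.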
